A study of Drosophila melanogaster with 3 samples.

Results

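The genes of the *Drosophila melanogaster* splicing machinery were examined for binding of CG15011, a zinc-finger protein whose gene is a paralogue of shuttle craft (stc). The set was given as 30 gene symbols for proteins of the spliceosome and for SR proteins. By symbol, 29 of them matched a gene of the Ensembl BDGP6 annotation, release 115, among 13945 protein-coding genes on 6 chromosome arms. The symbol l(3)72Ab matched none and was left out; RefSeq lists it as a synonym of Brr2, which had no promoter peak and no peak inside the gene in any of the 5 peak lists. Of the 29 members, 6 encode SR or SR-like proteins, 18 encode proteins of the small nuclear ribonucleoproteins (snRNPs), and 5 (U2af50, U2af38, hfp, Prp19 and peng) fall in neither class. They lie on 5 arms, with 9 on 2L, 5 on 2R, 6 on 3L, 6 on 3R and 3 on X, and their median gene span of 2334 bp is close to the 2166 bp of all protein-coding genes.

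The series holds 3 biological replicates of a single group: whole embryos of pooled sex, 0 to 24 h old, from a transgenic line that stably expresses CG15011 with GFP at its C-terminus. There was no second genotype, stage or treatment, and the promoter that drives the transgene was not given in the sources used here. A description label calls each sample an input control, whereas its antibody label names CG15011; because the deposited notes derive each list from that replicate's alignment and a control alignment common to all replicates, the samples were read as immunoprecipitations. The data are 5 peak lists in dm6 coordinates: 1 list of 30000 peaks per replicate, 1 of 30000 peaks from the pooled replicates, and an optimal set of 3237 peaks. Every optimal peak was found in the pooled list, where together they are its 3237 strongest. Each peak carries a signal value from the authors' peak caller, and since its scale differs between lists (the highest value was 973.6, 1530 and 794.9 in replicates 1, 2 and 3), peaks are compared by their rank within a list, 1 being the strongest. Read counts and depth were unknown from these files, and whole embryos mix all cell types, so a weak peak in all cells and a strong peak in few cells cannot be told apart. With 1 group, no test was possible; intervals below are exact 95% binomial intervals and cover the counting of genes only.

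As background, the spliceosome removes introns in steps. The U1 snRNP pairs with the 5′ splice site, the U2AF dimer and the U2 snRNP with its SF3a and SF3b proteins mark the 3′ splice site and the branch point, and the U4/U6·U5 tri-snRNP then joins to build the catalytic centre. A ring of Sm proteins forms the core of the U1, U2, U4 and U5 particles, and the Prp19 complex activates the assembled machine. SR proteins, named for a tail rich in arginine and serine, bind exons and recruit U1 and U2AF; in flies, tra2 steers the splicing choices of sex determination. The peng product, a Pumilio-family RNA-binding protein, is not a classical spliceosome component.

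A minority of these genes carried CG15011-GFP at their start. A summit of the optimal set lay at most 500 bp from an annotated transcription start site (TSS), here called a promoter peak, at 6 of 29 members: the SR protein genes SF2, B52 and SC35 and the snRNP protein genes snRNP-U1-C, Prp31 and SmD3. That is 20.7% of members (7.99 to 39.7%), while 10.8% of all protein-coding genes had such a peak, which lies inside the interval. SR protein genes gave 3 of 6 (50%, 11.8 to 88.2%), snRNP protein genes 3 of 18 (16.7%, 3.58 to 41.4%) and the others 0 of 5, which allows up to 52.2%. These intervals overlap one another. With the whole pooled list, 8 of 29 members (27.6%) had a promoter peak, beside 33.3% of all protein-coding genes; Srp54 and Sf3a1 were the members added to the 6. The members' share was above that of all protein-coding genes in the optimal set and below it in the pooled list, in both cases by less than the counting interval.

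**Figure D1:**
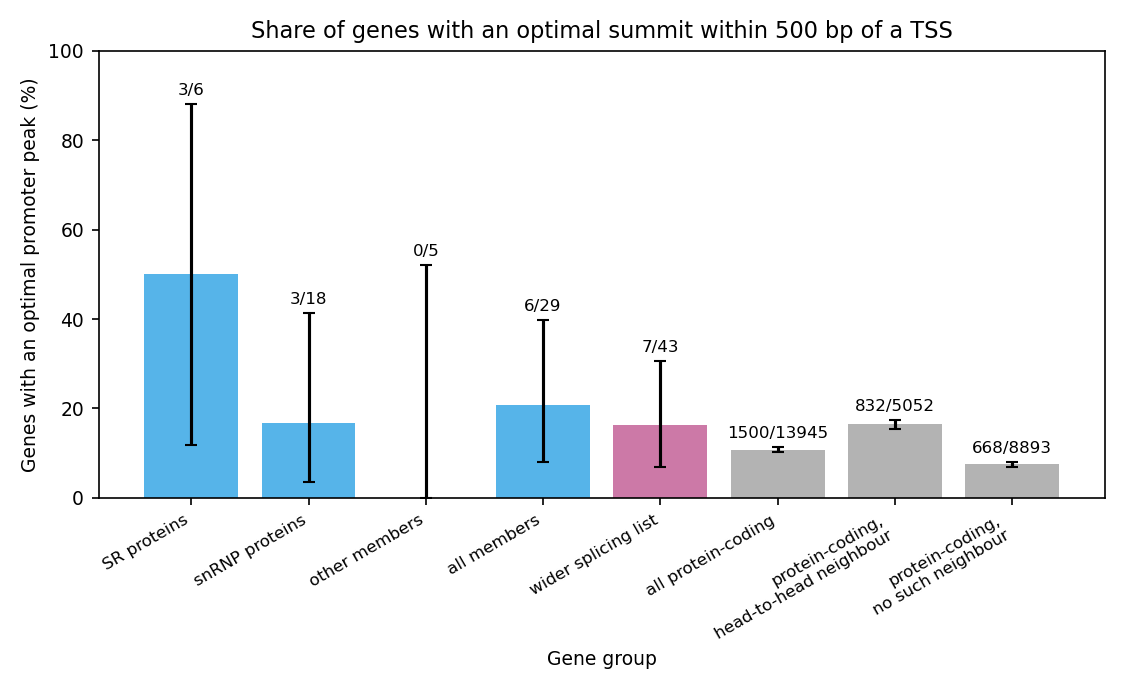
Percent of genes whose start has an optimal summit within 500 bp (vertical axis), by gene group; bars are shares, error bars exact 95% binomial intervals, and the fractions give genes with a peak over genes in the group. The 6 SR protein genes reach 50% with an interval from 11.8 to 88.2%, and the interval of all 29 members holds the 10.8% of all protein-coding genes.

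Among SR protein genes, SF2 (FBgn0283477, chr3R:16338943-16341988, minus strand), the homologue of human SRSF1, had its optimal peak at chr3R:16341937-16342380. The signal was 267.7 in the pooled list (rank 1430), 83.8 in replicate 1 (rank 1258), 120.3 in replicate 2 (rank 1540) and 63.2 in replicate 3 (rank 2054). All 3 replicates thus placed it among their 3237 strongest peaks. The summits lay 171 bp upstream of the TSS in the pooled list and 166, 192 and 188 bp upstream in replicates 1, 2 and 3. They fall between the starts of SF2 and of pad, a zinc-finger protein gene that is transcribed the other way from a TSS 330 bp off, so that the optimal summit is 159 bp from the start of pad. The optimal summit is thus slightly nearer to the start of pad than to that of SF2.

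B52 (FBgn0004587, chr3R:13661311-13666891, plus strand) encodes the SR protein SRp55. Its optimal peak at chr3R:13661087-13661530 had a signal of 252.4 (rank 1574), with 65.6 (rank 1874), 105.2 (rank 1922) and 98.5 (rank 920) in replicates 1, 2 and 3. The summit sat 2 bp upstream of the TSS in the pooled list and in replicate 1, 6 bp upstream in replicate 2 and 52 bp downstream in replicate 3. B52 was the member whose summit lay closest to the start. It was also the only one of the 6 without another gene's TSS within 500 bp of the summit, although Hrb87F, an hnRNP gene, starts 780 bp away on the other strand. The pooled list held a second, weaker promoter peak in the 5′ UTR of B52 (90.3, rank 7685).

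SC35 (FBgn0265298, chr2L:12431075-12434665, minus strand), the homologue of human SRSF2, had the weakest of the 6 optimal peaks, at chr2L:12433993-12434436 with a signal of 184.8 (rank 2571). Replicates 1 and 2 ranked it high, at 92.8 (rank 1057) and 103.0 (rank 1989), with summits 165 and 158 bp upstream of the nearest TSS. Replicate 3 had no peak over the optimal summit; its strongest SC35 promoter peak was at 25 (rank 12763), 299 bp downstream. The SC35 peak therefore rests on replicates 1 and 2. SC35 has 2 annotated TSSs, and the optimal summit is in an intron of the longer transcript, 177 bp from the downstream SC35 TSS and 237 bp from that of eRF3, a translation release factor gene. A second pooled promoter peak (95.6, rank 6929) and an intron peak 585 bp downstream (105.1, rank 5973) made SC35 the member with the most pooled peaks; the intron summit lies 273 bp from the start of snoRNA:SC35-b, a small nucleolar RNA gene within SC35. A summit at or next to the same intron position was also listed in replicate 2 (32.7, rank 12917) and replicate 3 (37.2, rank 5456), so in replicate 3 the intron peak of SC35 outranked its promoter peak. Replicate 1 also had a peak over that position (27.5, rank 8521). Its summit lay 470 bp downstream of an SC35 TSS and so counted as a promoter peak.

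The genomic sequence within 100 bp of the 3 optimal SR summits is shown because the starts of these genes differ in base composition and in known core-promoter letters. Each runs 5′ to 3′ along the gene's transcription (dm6, read from the RefSeq release 6 genome), and annotated exons are left out, which shortens B52. Capitals mark TATCGATA, the DNA replication-related element (DRE), and TATAAA, the TATA-box letters, on either strand. The lines hold chr3R:16342059-16342259 (minus strand) for SF2, chr3R:13661209-13661310 (plus strand) for B52 and chr2L:12434115-12434315 (minus strand) for SC35, with first bases 271, 102 and 277 bp upstream of the TSS.
SF2: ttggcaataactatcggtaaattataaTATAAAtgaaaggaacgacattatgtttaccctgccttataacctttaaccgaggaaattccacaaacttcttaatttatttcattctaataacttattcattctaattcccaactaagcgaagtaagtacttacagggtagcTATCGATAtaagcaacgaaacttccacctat
B52: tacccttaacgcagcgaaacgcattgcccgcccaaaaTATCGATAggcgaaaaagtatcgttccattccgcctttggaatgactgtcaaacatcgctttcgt
SC35: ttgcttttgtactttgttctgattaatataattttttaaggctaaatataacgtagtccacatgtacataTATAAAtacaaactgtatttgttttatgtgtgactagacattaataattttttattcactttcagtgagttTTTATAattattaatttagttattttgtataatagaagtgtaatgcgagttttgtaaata

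The DRE letters are in the SF2 and B52 windows, and SF2 also has a TATA match at the upstream end of its window. SC35 has 2 TATA matches and no DRE, in the most A- and T-rich window of the 6. No motif match is a measured binding site.

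The other SR genes showed less. Srp54 had a weak promoter peak 253 bp upstream in the pooled list (60.1, rank 16435). Replicate 1 (25.4, rank 10103) and replicate 2 (28.7, rank 16859) also had a promoter peak, and replicate 3 had none. Etl1 starts 303 bp from Srp54 on the other strand. The summits in the pooled list and replicates 1 and 2 were 50, 66 and 28 bp from the start of Etl1, nearer than to that of Srp54. Binding at Srp54 and at Etl1 cannot be told apart. x16, the homologue of human SRSF7, and tra2 had no promoter peak in any list. SR protein genes were thus divided, with 3 in the optimal set, 1 in the lower part of the pooled list and 2 with no peak.

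Among snRNP protein genes, snRNP-U1-C (FBgn0261792, chr3R:18982964-18983650, minus strand), which encodes a U1 protein that stabilises pairing with the 5′ splice site, had the strongest peak of all members. It lay at chr3R:18983569-18984012 with a signal of 274.2 (rank 1382), and replicates 1, 2 and 3 gave 76.8 (rank 1469), 111.3 (rank 1760) and 80.4 (rank 1369). The 4 ranks are close, and the summits lay 141 bp upstream in the pooled list and 175, 161 and 136 bp upstream in the replicates. The summit is 234 bp from the start of gukh on the other strand.

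Prp31 (FBgn0036487, chr3L:15159100-15161138, plus strand), which encodes a protein that holds the U4/U6 snRNP to U5, had its optimal peak at chr3L:15158679-15159122 (197.0, rank 2331). Replicates 1 and 2 ranked it at 2260 (58.6) and 1480 (123.1), and replicate 3 far lower at 17545 (21.4). Summits lay 199 bp upstream in the pooled list and 186, 165 and 215 bp upstream in replicates 1, 2 and 3, close in position though far apart in rank. Msh6, a DNA mismatch repair gene, starts 339 bp from the optimal summit on the other strand.

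The windows around these summits are shown beside the SR windows because they hold no DRE letters. The lines hold chr3R:18983691-18983891 (minus strand) for snRNP-U1-C and chr3L:15158801-15159001 (plus strand) for Prp31, with first bases 241 and 299 bp upstream of the TSS, written as above.
snRNP-U1-C: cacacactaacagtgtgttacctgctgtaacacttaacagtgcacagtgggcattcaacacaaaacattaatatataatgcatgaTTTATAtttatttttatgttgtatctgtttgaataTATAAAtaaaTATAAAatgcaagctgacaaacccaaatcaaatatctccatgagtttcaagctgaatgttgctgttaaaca
Prp31: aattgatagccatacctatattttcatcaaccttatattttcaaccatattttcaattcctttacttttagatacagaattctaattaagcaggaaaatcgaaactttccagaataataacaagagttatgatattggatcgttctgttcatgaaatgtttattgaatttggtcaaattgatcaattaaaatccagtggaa

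The snRNP-U1-C window has 3 TATA matches upstream of the start, and the Prp31 window holds none of the 6 motifs searched.

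Among the 6 Sm ring genes in the member set, SmD3 (FBgn0023167, chr2R:12168731-12170003, plus strand) was the only 1 with a promoter peak in any list. Its optimal peak at chr2R:12168438-12168881 had a signal of 198.8 (rank 2291), with 58.7 (rank 2251) and 102.2 (rank 2015) in replicates 1 and 2. Replicate 3 had a peak over the same place at 35.0 (rank 6189) and a slightly stronger promoter peak in the coding exon, 267 bp downstream (37.4, rank 5417). The pooled summit lay 71 bp upstream of SmD3 and 172 bp from the start of Oda, the ornithine decarboxylase antizyme gene.

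**Figure D2:**
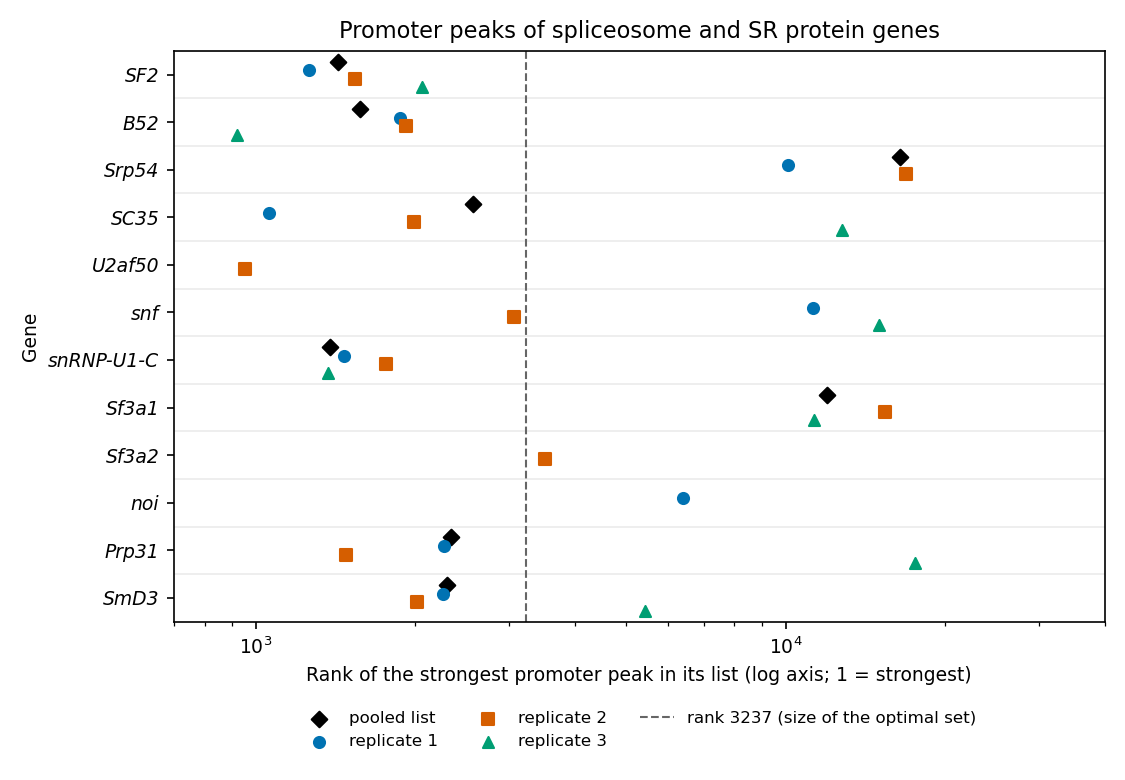
Rank of the strongest promoter peak (horizontal, log axis, 1 is the strongest) in the pooled list and in replicates 1, 2 and 3 for the 12 members with such a peak in any list; the dashed line is rank 3237, the size of the optimal set. SF2, B52 and snRNP-U1-C lie left of the line in all 4 lists, SC35, Prp31 and SmD3 lie right of it in replicate 3, and U2af50 has a point in replicate 2 only.

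The remaining snRNP genes with any promoter peak were weaker. Sf3a1, of the SF3a complex, had the strongest pooled promoter peak among members without an optimal one, 70.7 at rank 11977 and 273 bp upstream, with 30.1 (rank 15393) in replicate 2, 26.3 (rank 11315) in replicate 3 and none in replicate 1. The pooled summit was nearer the start of Irc, 247 bp away on the other strand, so binding at Sf3a1 and at Irc cannot be told apart. With each gene taken at its strongest pooled promoter peak, the next member above Sf3a1 was SC35 at rank 2571. Sf3a2 had a promoter peak in replicate 2 alone (70.3, rank 3509, 46 bp upstream), and noi, the third SF3a gene, in replicate 1 alone (31.6, rank 6397, 72 bp upstream). The 3 SF3b genes Sf3b1, Sf3b2 and Sf3b3, the U5 gene Prp8, the U4/U6 gene Prp3, the U1 gene snRNP-U1-70K and the Sm genes SmB, SmD1, SmD2, SmE and SmF had no promoter peak in any list. In all, 17 members had none, among them U2af38, hfp, Prp19 and peng.

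For snf, which encodes the fly counterpart of a U1 and a U2 snRNP protein, all 3 replicates but not the pooled list had a promoter peak, with 24.1 (rank 11268), 77.1 (rank 3063) and 23.2 (rank 14969) in replicates 1, 2 and 3. The snf summits lay 23, 73 and 144 bp upstream, between the starts of snf and of Cdk7, a kinase gene 259 bp off. U2af50, the large subunit of U2AF, was the extreme case: replicate 2 had a peak at chrX:16358927-16359356 with a signal of 159.5 (rank 953), 103 bp upstream of the TSS, and no other list had a promoter peak there. That was a higher rank than replicate 2 gave any of the 6 genes with an optimal peak. The summit is 1 bp upstream of the TSS of PIG-Q on the other strand. Among the strongest 3237 peaks of each list, 155 (4.79%) in replicate 1, 85 (2.63%) in replicate 2 and 101 (3.12%) in replicate 3 overlapped no pooled peak, so such peaks were uncommon; U2af50 and snf were singled out after their values were seen.

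The U2af50 stretch is shown because its peak was so uneven between replicates. The line holds chrX:16359042-16359142 (minus strand), annotated exons left out, with its first base 103 bp upstream of the TSS; the capitals are 2 overlapping TATA matches.
U2af50: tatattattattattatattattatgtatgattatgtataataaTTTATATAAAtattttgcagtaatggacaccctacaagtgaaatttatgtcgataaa

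Within each replicate's 3237 strongest peaks, 6 members (20.7%) had a promoter peak in replicate 1, 8 (27.6%) in replicate 2 and 3 (10.3%) in replicate 3, a mean of 5.67 ± 2.52 (SD, n = 3). The shares of all protein-coding genes were 12.5%, 11.9% and 9.92%. The members' interval held the background in replicate 1 (7.99 to 39.7%) and replicate 3 (2.19 to 27.4%) and lay just above it in replicate 2 (12.7 to 47.2%), and the 3 intervals overlap one another. This background was not matched for gene arrangement, and matched shares are given below. SF2, B52 and snRNP-U1-C passed in all 3 replicates, 10.3% of members beside 7.01% of all protein-coding genes. Over any of the 5 lists at any rank, 12 members (41.4%, 23.5 to 61.1%) had a promoter peak. The share of all protein-coding genes, 54.8%, was higher but lies inside that interval. Across the 23 members without an optimal promoter peak, the nearest optimal summit was between 3015 bp (U2af38) and 67681 bp (snRNP-U1-70K) from the TSS, with a median of 13627 bp.

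Peaks inside the gene bodies were few. No member had an optimal summit inside the gene and beyond 500 bp of every TSS (0 of 29, up to 11.9%), against 4.65% of all protein-coding genes that had only such peaks. Members span at most 8741 bp and protein-coding genes up to 1.97e+06 bp, and the shares of genes with inside peaks were not matched for span. In the pooled list 3 of 29 members had a summit inside, SF2, SC35 and SmD1, beside 25.3% of all protein-coding genes. Of these, the SC35 intron peak was the strongest; the SF2 peak (45.5, rank 28370) lay in the 3′ UTR near the start of Sulf1, and the SmD1 peaks, in its coding exons, ranked 22991 and 25463. In single replicates, noi had a coding-exon peak at 34.4 (rank 5451) in replicate 1, and B52 an intron peak at 44.1 (rank 7288) in replicate 2. SmD1 had coding-exon peaks in replicate 1 (30.6, rank 6816) and, lower, in replicate 3 (ranks 20864 and 22367). Inside snRNP-U1-70K, replicate 3 alone had peaks, at ranks 24702 and 24820.

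The members share a gene arrangement that the choice of symbols did not use. A protein-coding neighbour on the other strand, with its TSS upstream within 1000 bp (a head-to-head neighbour), was present for 26 of 29 members (89.7%), against 36.2% of all protein-coding genes. The 6 with optimal promoter peaks all had one, beside 832 of the 1500 protein-coding genes with such a peak (55.5%). Over the 26 members, each taken at its closest pair, the paired TSSs were 53 to 780 bp apart, with a median of 281.5 bp. For SC35 the closest pair is 227 bp apart and starts from its upstream TSS, so the optimal summit does not lie between them. Among protein-coding genes in general, 16.5% of those with a head-to-head neighbour and 7.51% of those without had an optimal promoter peak. The members gave 6 of 26 (23.1%, 8.97 to 43.6%) with a neighbour and 0 of 3 (tra2, snRNP-U1-70K and SmF) without, which allows up to 70.8%. Both intervals hold the matching share of protein-coding genes. In replicates 1, 2 and 3, the share of head-to-head protein-coding genes with a promoter peak among the 3237 strongest was 21.3%, 19.4% and 13.8%. The 26 head-to-head members gave 23.1% (8.97 to 43.6%), 30.8% (14.3 to 51.8%) and 11.5% (2.45 to 30.2%). Each of these intervals holds the matching share, also in replicate 2. In addition, 24 members have a single annotated TSS, of which 4 (16.7%, 4.74 to 37.4%) had an optimal promoter peak. The share of all such protein-coding genes, 6.86%, lies inside the interval and was not matched for head-to-head neighbours.

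Of the 6 optimal summits, 5 (all but B52) also lay within 500 bp of another gene's TSS, as did those of 772 of the 1500 protein-coding genes that had optimal promoter peaks (51.5%). The 51.5% was not matched for head-to-head neighbours, which all 6 members have, beside 55.5% of the 1500 genes. For the 5 shared summits, binding at the splicing gene and at its neighbour cannot be told apart. The strongest replicate peak over each optimal summit had its own summit within 54 bp of it, replicate 3 at SC35 excepted, which had no such peak. The median optimal summit lay 156 bp upstream of the member's TSS.

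**Figure D3:**
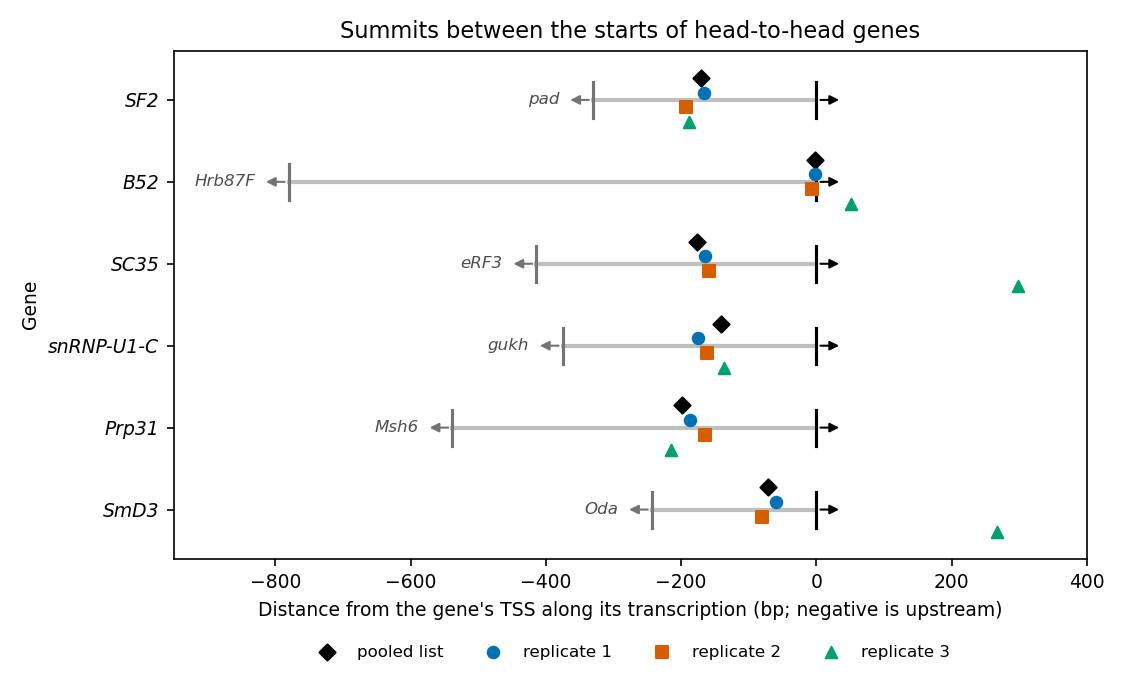
Distance in bp from the gene's TSS along its transcription (0, black bar and arrow; negative is upstream) of the strongest promoter summit in the pooled list and each replicate, for the 6 members with an optimal promoter peak; the grey bar and arrow mark the start and direction of the head-to-head neighbour. All 6 pooled summits lie between the paired starts, which for SC35 are its downstream TSS and an eRF3 TSS 414 bp away. The B52 summit lies 2 bp from its TSS, while the strongest replicate 3 summits of SC35 and SmD3 lie 299 and 267 bp downstream.

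These peaks were on the weaker side of the optimal promoter peaks. The 6 member signals ran from 184.8 to 274.2 with a median of 225.6, below the median of 295.8 over all protein-coding genes holding such a peak, whose quartiles were 209.8 and 502.2. SC35, Prp31 and SmD3 lay below that lower quartile. The highest member, snRNP-U1-C, did not reach that gene median, whereas the strongest protein-coding gene peak was at 2964.8.

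The summits were unlike one another in base composition. Within 100 bp of the summit, G and C made up 21.9% of bases at SC35, 27.4% at Prp31, 30.3% at snRNP-U1-C, 31.8% at SF2, 45.8% at B52 and 52.7% at SmD3. The 1384 optimal promoter peaks had a median of 33.8%, with 5th and 95th percentiles of 24.4 and 48.2%, so that SC35 and SmD3 lay outside this range at opposite ends. Of the optimal promoter peaks, 1.3% had a lower value than SC35 and 98.5% a lower value than SmD3.

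**Figure D4:**
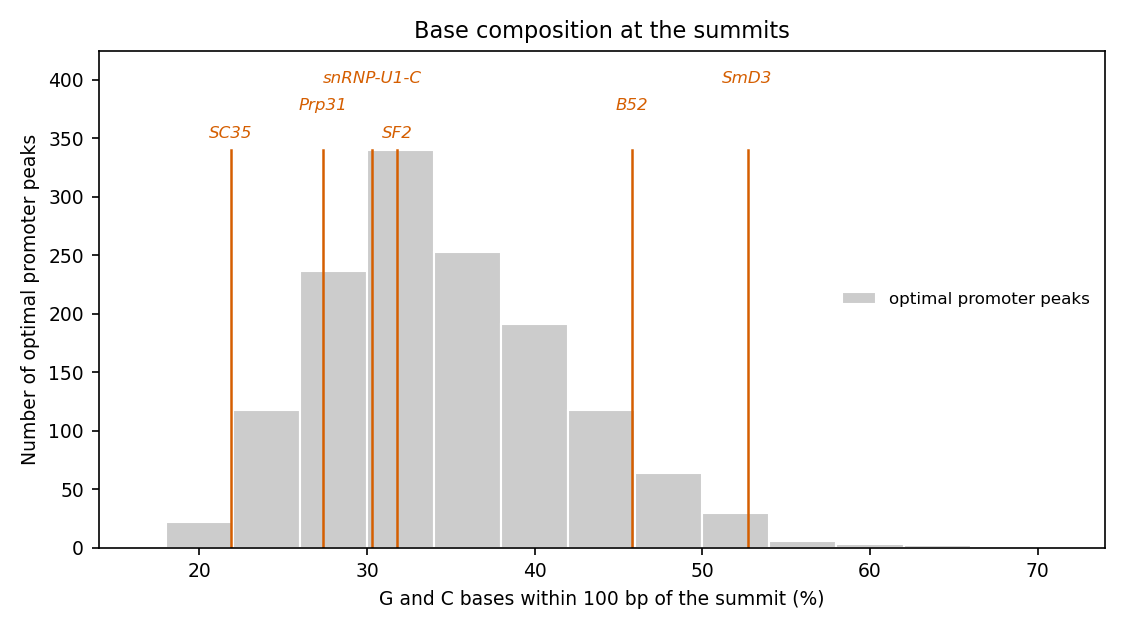
Number of optimal promoter peaks (vertical axis) by the percent of G and C bases within 100 bp of the summit (horizontal axis); orange lines mark the 6 members with an optimal promoter peak. SC35 at 21.9% and SmD3 at 52.7% stand at opposite ends, and the other 4 lie between 27.4 and 45.8%.

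A total of 6 letter patterns was searched on both strands. In the 201-bp summit windows, the DRE letters TATCGATA were in 2 of 6 members, SF2 and B52, and in 4.05% of optimal promoter windows. The GAGA-factor letters GAGAG were in B52 alone, within its transcribed part, and in 22.3% of optimal promoter windows; the E-box CAGCTG was in SmD3 alone and in 8.24%; TATAAA was in SF2, SC35 and snRNP-U1-C and in 40.4%. The Motif 1 letters GGTCACAC and the E-box CACGTG were in no member window, and in 1.95% and 2.17% of optimal promoter windows. Matches of different patterns may overlap at their ends, as DRE and TATAAA can, and GAGAG can overlap copies of itself.

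In the 300 bp from 250 bp upstream to 50 bp downstream of the most upstream TSS, 9 of 29 members (31.0%) held the DRE letters, beside 9.36% of all protein-coding genes and 11.3% of those with an optimal promoter peak. These were 3 of the 6 members with an optimal promoter peak and 6 of the other 23. Motif 1 was in 7 of 29 promoters (24.1%, against 7.7%). It was in 0 of the 6 members with an optimal promoter peak and in 7 of the other 23. A count of 0 among 6 is too small to show that Motif 1 and a peak exclude each other. Across the genome, coding genes that had such a peak held Motif 1 in 8.8% of cases, not below the 7.7%. TATAAA was in 18 members (62.1%, against 45.8%), GAGAG in 4 (13.8%, against 29.7%), CAGCTG in 5 (17.2%, against 17.7%) and CACGTG in 1 (3.45%, against 4.2%).

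A wider list of splicing genes, which holds no member, was set beside them. Of 57 symbols, 43 matched a gene, and 7 of these (16.3%, 6.81 to 30.7%) had an optimal promoter peak, an interval that holds the 10.8% of all protein-coding genes. The strongest was at Sxl, the switch gene of sex determination and itself a splicing regulator (435.9, rank 622, 364 bp downstream of the TSS). Sf3b6, an SF3b subunit, followed at 369.4 (rank 839, 155 bp upstream), then Doa, a kinase of SR proteins, at 274.6 (rank 1380, 90 bp upstream), and ps, a Nova-type splicing regulator, at 254.2 (rank 1552, 232 bp upstream). Sxl, Sf3b6 and, by a small margin, Doa exceeded the strongest member, snRNP-U1-C at 274.2. By group (ps was listed with the hnRNP genes), SR-related genes gave 2 of 6, further snRNP genes 2 of 12, hnRNP genes 2 of 6, sex-specific splicing genes 1 of 4, genes of the catalytic steps 0 of 12 and exon junction genes 0 of 3.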

How the data were processed

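Chromatin immunoprecipitation with sequencing of CG15011-GFP was read through narrowPeak lists of 3 replicates, of the pooled replicates and of the authors' optimal set, in dm6 coordinates per the labels. The authors' deposited values used here are the signal of each peak and its summit; the deposited −log10 q-value only ordered peaks of equal signal. Aligner, peak caller, versions and reproducibility threshold: not given in the sources used here. Read counts were not in the lists, so depth and its precision are unknown. Single-replicate and pooled lists each hold 30000 peaks, weak ones included, per the deposited notes' use of them as input for a reproducibility comparison.

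With Python 3.11.15, numpy 2.4.6, scipy 1.17.1 and matplotlib 3.10.9, each summit was assigned to every gene with a TSS within 500 bp (Ensembl release 115, transposable elements left out); 2 optimal peaks whose summit offset fell outside the peak took its midpoint. Ranks follow the signal within a list. The assignment was tested on simulated peaks. The genes named are every member with an optimal peak at a TSS or inside the gene, in each role group without one the member with the strongest pooled promoter peak, and the 4 strongest of the wider list; U2af50, snf, Sf3a2, noi and Srp54 were added as members with values of their own. Members, role groups, the wider list and motifs were chosen with earlier results of these data known. Alternatives changed the window, the peak set, the assignment and the replicates. Base composition and motifs were read over whole windows; the sequences printed leave out annotated exons, and that of SmD3 is not printed.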

Additional observations from a re-analysis of the deposited data

How the results depend on the processing

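Of 71 alternatives, 56 left the value close to that reported, 15 moved it and 0 reversed it. Most of these values are counts, which cannot change sign, and "close" includes a fall from 3 to 2. Some outcomes were fixed in advance: members with only inside optimal peaks, 0 in the full set, stay at 0 in any subset of those peaks. The tally is therefore no measure of robustness. With the stronger 1618 optimal peaks, 3 members kept an optimal promoter peak (background 6.75%), and so did 1 snRNP gene, 2 of the shared summits and 4 genes of the wider list. Counting optimal peaks held by both other replicates among their 3237 strongest, the members ranged from 3 without replicate 1 (background 7.52%) and 3 without replicate 2 (7.34%), SF2, B52 and snRNP-U1-C in both, to 6 without replicate 3 (8.71%); snRNP genes ranged from 1 to 3 and shared summits from 2 to 5. Members with a promoter peak in every replicate ranged from 3 to 6 when 1 replicate was left out, and were 0 with the strongest 1618 peaks of each replicate and 7 with all peaks. Assigning a summit to its nearest TSS only left 0 shared summits, which follows from that rule. It also left 5 members with a pooled promoter peak and 5 with an optimal one. SF2 lost its optimal promoter peak, because the summit is nearer to the start of pad. Members with a promoter peak in every replicate then fell from 3 to 2. The SR count was 3 or 2 under the alternatives run. No paired analysis was possible because the samples form 1 group. Unknown read depth limits every absent peak: it may be absent or undetected.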

Other observations

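The RNA partners of these proteins, the small nuclear RNA genes, were read in the same way. Of 32 annotated snRNA genes, 3 (9.38%) had an optimal summit within 500 bp of the TSS and 13 (40.6%) had a pooled one, beside 10.8% and 33.3% of all protein-coding genes. The 3 were snRNA:7SKa, whose RNA acts in transcription elongation and not in splicing (214.5, rank 2054, 190 bp downstream of the TSS), snRNA:U1:95Ca (212.4, rank 2081, 252 bp downstream) and snRNA:U5:63BC (186.7, rank 2533, 147 bp downstream). Each of these summits lies downstream of the annotated start, whereas the 6 optimal summits at the protein genes lay upstream of the nearest TSS of the gene, for SC35 the downstream one of its 2 TSSs. These snRNA genes are short. At snRNA:U1:95Ca (chr3R:23859467-23859630) and snRNA:U5:63BC (chr3L:3090801-3090923) the summit lies past the 3′ end of the gene. Only the snRNA:7SKa summit lies inside its gene (chr3R:7474553-7474996). snRNA:U4:39B fell just short of the optimal set in the pooled list (156.8, rank 3261). Among the 3237 strongest peaks of replicates 1, 2 and 3, 5 (15.6%), 3 (9.38%) and 2 (6.25%) snRNA genes had a promoter peak, beside 12.5%, 11.9% and 9.92% of all protein-coding genes. U1, U2, U4, U5 and U6 genes come in several nearly identical copies, and the handling of reads that match several copies was not stated, so the copy that a peak belongs to is uncertain.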
